A study of Mus musculus with 2 samples.

Results

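The genes described here are 50 genes of the cell division cycle, followed in a three-dimensional skin model grown from cells of an Itih5 knockout mouse and in a model grown from wildtype cells. A gene entered if a probe set of the array is annotated to that gene and to no other, which held for 48 of the 50 listed genes and for 50 probe sets, out of 22180 genes with such a probe set. Ccne2 and Ccnb1 had none, so no intensity is given for them, and Ccnb1 enters with its promoter window only. Expression was measured on 1 array for each model, both marked as day 7 in their titles. The knockout model holds cells of the genotype Itih5 knockout. The gene encodes a heavy chain of the inter-alpha-trypsin inhibitor family that binds hyaluronan. The wildtype model holds cells of wildtype genotype. Per the labels, the epidermal keratinocytes and dermal fibroblasts came from adult, untreated mice and were passaged continuously as cultures that had lost their need for a collagen coat, so both models are built from long-cultured cells. The sources used here do not give strain, sex, the number of mice behind each model or the deleted part of Itih5.

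Dividing cells pass through a growth phase (G1), DNA synthesis (S), a second gap (G2) and mitosis (M). D-type and E-type cyclins with their kinases release E2F transcription factors from the retinoblastoma protein at the end of G1, and E2F then switches on genes for DNA replication. Genes for mitosis peak later, under the transcription factors B-Myb and Foxm1. In skin, division is normally limited to the basal keratinocyte layer, while fibroblasts divide slowly unless stimulated, and cells that leave the basal layer stop dividing as they differentiate. The members were split by role into 25 G1/S genes (regulators of G1 and the replication machinery) and 25 G2/M genes (mitotic kinases and cyclins, checkpoint and anaphase control, spindle and kinetochore, and the proliferation markers Mki67 and Top2a).

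The promoters of these genes show the difference between the classes in their letters. RefSeq promoter windows of build GRCm38.p6, each running from 250 bases before to 50 bases after a gene start, were at hand for 39 of the 50 genes (41 windows). Both strands were searched for the E2F motif, spelled TTCCCGC in its first form, then also TTGGCGC as a second form, TTCGCGC as another and TTGCCGC as the last. The cell cycle homology region (CHR) was searched as TTTGAA or in the variant form TTCGAA. The box that the factor NF-Y binds was searched as CCAAT. Matches may overlap each other, within a motif and between motifs. The 8 windows printed here belong to the highest and the lowest differences among the replication genes (Cdc45, Mcm3, Cdc6, Mcm5) and among the G2/M genes (Birc5, Cdc20, Top2a, Mki67), so that the sequences can be set beside the values. Capitals mark every match to any of these motifs, and each sequence reads 5′ to 3′ on the gene's strand.
Cdc45, chr16:18811923-18812222, minus strand: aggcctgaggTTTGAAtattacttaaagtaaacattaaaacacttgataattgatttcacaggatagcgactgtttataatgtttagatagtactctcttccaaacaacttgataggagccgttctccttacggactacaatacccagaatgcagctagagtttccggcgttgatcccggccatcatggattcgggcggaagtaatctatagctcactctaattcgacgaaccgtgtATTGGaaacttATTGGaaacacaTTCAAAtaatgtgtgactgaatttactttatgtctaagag
Mcm3, chr1:20820263-20820562, minus strand: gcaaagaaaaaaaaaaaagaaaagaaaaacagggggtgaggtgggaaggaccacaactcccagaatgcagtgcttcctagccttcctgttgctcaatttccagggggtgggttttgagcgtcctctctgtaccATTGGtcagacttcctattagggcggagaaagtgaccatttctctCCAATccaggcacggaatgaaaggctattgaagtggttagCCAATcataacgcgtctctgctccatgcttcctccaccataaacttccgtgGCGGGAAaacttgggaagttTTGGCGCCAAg
Cdc6, chr11:98907901-98908200, plus strand: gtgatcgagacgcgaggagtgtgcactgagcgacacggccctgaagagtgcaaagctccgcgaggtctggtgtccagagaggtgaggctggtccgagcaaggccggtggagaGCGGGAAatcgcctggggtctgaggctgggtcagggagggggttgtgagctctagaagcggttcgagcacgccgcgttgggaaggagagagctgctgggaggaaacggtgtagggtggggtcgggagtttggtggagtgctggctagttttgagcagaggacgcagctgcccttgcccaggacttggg
Mcm5, chr8:75109259-75109558, plus strand: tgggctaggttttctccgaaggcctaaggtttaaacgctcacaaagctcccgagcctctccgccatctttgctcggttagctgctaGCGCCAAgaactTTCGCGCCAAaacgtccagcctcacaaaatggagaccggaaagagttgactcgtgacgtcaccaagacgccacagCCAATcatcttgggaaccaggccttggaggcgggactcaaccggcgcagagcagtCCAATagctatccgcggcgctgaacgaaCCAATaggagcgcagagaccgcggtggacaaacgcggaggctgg
Birc5, chr11:117848987-117849286, plus strand: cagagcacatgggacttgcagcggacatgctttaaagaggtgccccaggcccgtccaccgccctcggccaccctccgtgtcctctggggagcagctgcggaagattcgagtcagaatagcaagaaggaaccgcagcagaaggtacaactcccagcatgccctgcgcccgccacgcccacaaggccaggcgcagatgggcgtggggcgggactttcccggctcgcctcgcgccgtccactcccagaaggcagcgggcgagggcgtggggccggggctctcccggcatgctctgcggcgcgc
Cdc20, chr4:118437294-118437593, minus strand: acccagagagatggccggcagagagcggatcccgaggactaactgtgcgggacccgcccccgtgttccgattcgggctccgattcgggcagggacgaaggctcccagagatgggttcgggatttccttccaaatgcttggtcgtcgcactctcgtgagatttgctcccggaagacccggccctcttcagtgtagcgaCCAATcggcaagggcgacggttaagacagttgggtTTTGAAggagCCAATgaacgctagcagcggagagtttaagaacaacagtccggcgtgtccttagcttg
Top2a, chr11:99024140-99024439, minus strand: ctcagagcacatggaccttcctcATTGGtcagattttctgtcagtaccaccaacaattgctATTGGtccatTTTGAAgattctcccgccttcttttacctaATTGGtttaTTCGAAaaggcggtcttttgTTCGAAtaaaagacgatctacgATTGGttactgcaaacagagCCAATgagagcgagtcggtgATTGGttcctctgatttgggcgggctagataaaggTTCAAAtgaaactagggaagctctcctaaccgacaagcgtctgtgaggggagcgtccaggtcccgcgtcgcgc
Mki67, chr7:135716330-135716629, minus strand: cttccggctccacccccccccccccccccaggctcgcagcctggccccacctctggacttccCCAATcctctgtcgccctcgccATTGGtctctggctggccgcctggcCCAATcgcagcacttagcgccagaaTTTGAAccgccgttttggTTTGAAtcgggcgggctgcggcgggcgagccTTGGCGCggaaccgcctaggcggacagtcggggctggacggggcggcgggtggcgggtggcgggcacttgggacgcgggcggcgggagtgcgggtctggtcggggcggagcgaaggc

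An E2F motif lay in 10 of 22 G1/S windows (45.5%) and in 3 of 19 G2/M windows (15.8%), against 9.57% of all 32851 promoter windows. Among the 14 windows of the replication genes the count was 9 (64.3%), and Mcm3 and Mcm5 above hold 3 matches each. The CHR motif showed the opposite order. It lay in 3 of 22 G1/S windows (13.6%) and in 14 of 19 G2/M windows (73.7%), against 19.2% of all windows. All 14 of these G2/M windows also held a CCAAT box, as did the 3 G1/S windows with a CHR, a combination found in 7.52% of all windows. A CCAAT box by itself lay in 12 of 22 G1/S windows (54.5%) and 16 of 19 G2/M windows (84.2%), against 37.4% of all. A CHR within 50 bases of the gene start, a distance chosen after the positions were seen, was present in 1 of 22 G1/S windows and in 13 of 19 G2/M windows (68.4%), against 5.31% of all. Top2a carries 4 CHR matches and 6 CCAAT boxes, whereas the Birc5 window holds no match to any of the motifs searched, which says only that these letters are not in this stretch. Restricting the background to windows of expressed genes gave 15.1% with an E2F motif, 13.7% with a CHR and 36.9% with a CCAAT box. The matches are descriptions of sequence and not of binding.

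**Figure D1:**
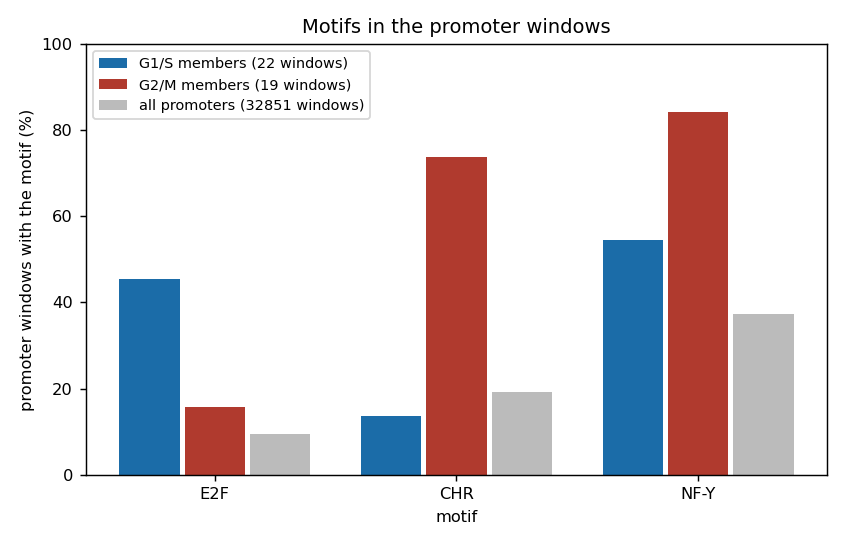
Share of promoter windows (percent, vertical axis) that hold an E2F motif, a CHR motif or the CCAAT box bound by NF-Y, for G1/S members (blue, 22 windows), G2/M members (red, 19 windows) and all promoters (grey, 32851 windows). The E2F bar is highest for G1/S members at 45.5%, and the CHR bar is highest for G2/M members at 73.7%.

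All values are probe set intensities in array units, and a difference is the log2 value of the knockout model minus that of the wildtype model. The deposited intensities had lost their decimal point, which was restored as described under the processing. A value is given where the restored place had a probability of at least 0.95. That held for 41 of the 48 measured members, 19 of them with 1 possible place on both arrays. For the other 22, a true difference near 10-fold, 1 step of the point, could be read as one near 0. Each group has 1 array, so no difference has a replicate check, no p-value can be given, and sizes are described against all expressed genes. The number of arrays limits the precision. The expression threshold was the median of all restored probe sets over both arrays, 46.3. A gene passed it with the brighter of its arrays, as 12667 of 20746 genes with a restored value did. All 41 members passed, with a lowest intensity of 76.4, and both of each member's values lay above the threshold. Over all restored probe sets, the knockout array spanned 18.3 to 14117 with a median of 46.1, and the wildtype array spanned 18.5 to 15400.2 with a median of 46.6. The single probe set of Itih5 read 30.4 in the knockout model, against 29.8 in the wildtype model, below the threshold in both, so it checks neither label.

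The cell cycle genes read almost alike in the knockout and the wildtype model. None of the 41 members was 2-fold higher or lower in the knockout model, while the shares among all 12667 expressed genes were 3.82% for higher and 3.33% for lower values. At a threshold of 1.5-fold, 1 member was higher (Birc5) and none lower, against 11.5% and 8.31% of all expressed genes. Thus 40 of 41 members (97.6%) lay within 1.5-fold, beside 80.2% of all expressed genes. The members' median difference was 0.00, and the median over all expressed genes 0.04. The middle 50% of members spanned -0.20 to 0.16, and the middle 50% of all expressed genes -0.21 to 0.31. Members ran from -0.54 for Mki67 to 0.67 for Birc5, with 21 above and 20 below 0.

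**Figure D2:**
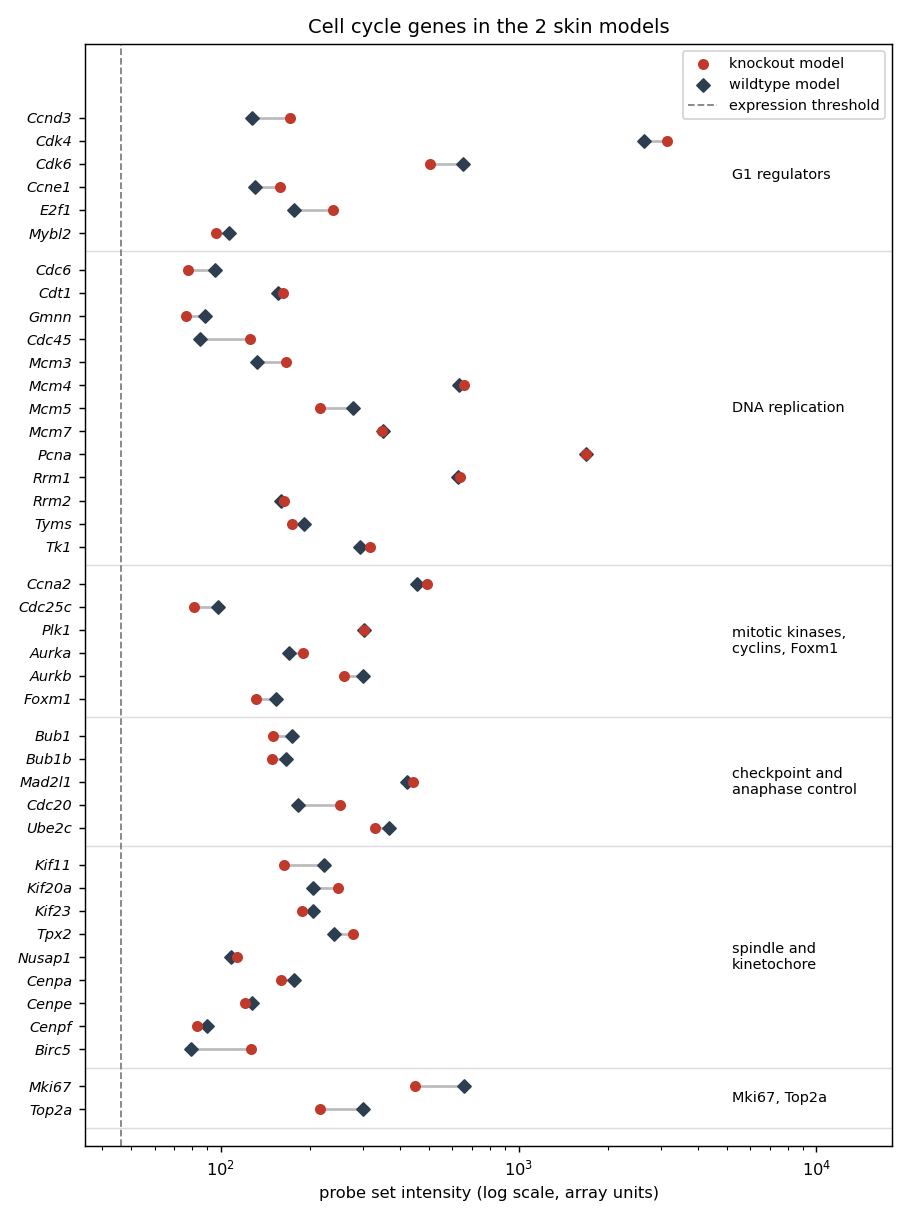
Intensity (log scale, array units) of the 41 restored members in the knockout model (red circles) and the wildtype model (dark diamonds), grouped by role, with the expression threshold of 46.3 as a dashed line. The paired points of most genes nearly coincide, and the widest pairs are Birc5, Cdc45 and Mki67. Intensities of different probe sets are not comparable as amounts.

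The G1/S genes centred near the median of all expressed genes, 0.04, and the G2/M genes slightly below it. The median difference was 0.03 over 19 G1/S members, of which 12 were above 0, and -0.12 over 22 G2/M members, of which 9 were above 0. Below 0 were 7 of 19 G1/S and 13 of 22 G2/M members, beside 45.8% of all expressed genes. Above the median of all expressed genes lay 9 of 19 G1/S and 8 of 22 G2/M members. The G1/S median exceeded the G2/M median by 0.15 on the log2 scale, which is less than the standard deviation over genes within either class (0.27 for G1/S and 0.29 for G2/M). The ranges overlapped almost fully, from -0.37 to 0.55 for G1/S and from -0.54 to 0.67 for G2/M members. With 1 array in each group the gap cannot be set against replicate error.

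**Figure D3:**
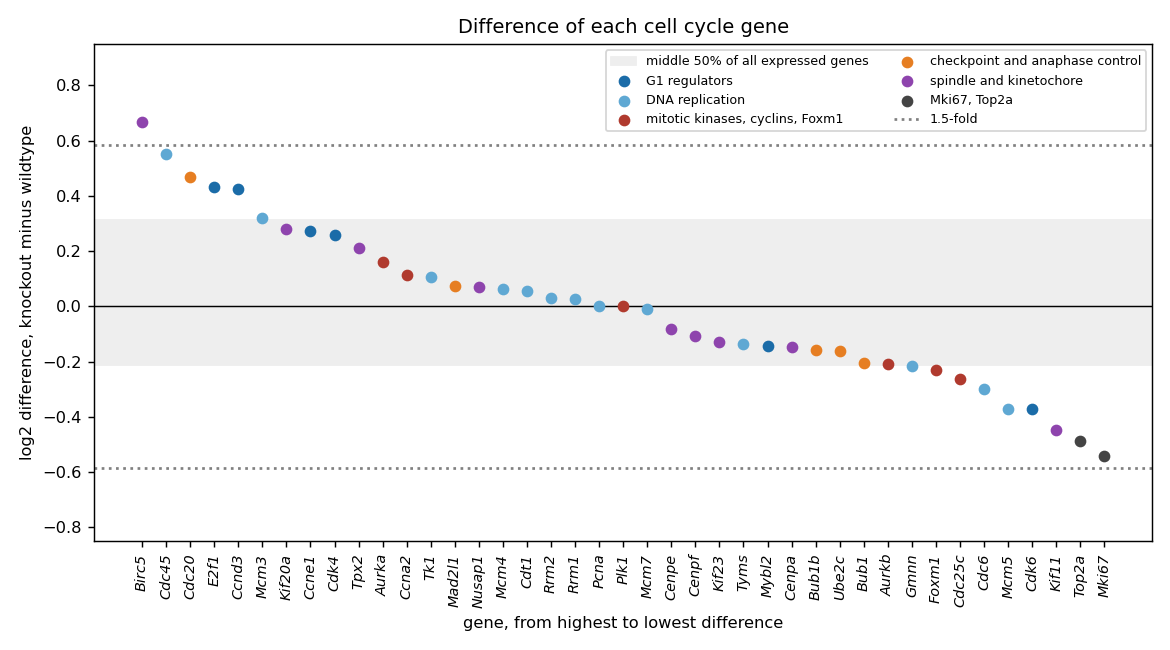
Log2 difference (knockout minus wildtype, vertical axis) of the 41 members in falling order, coloured by role, with dotted lines at 1.5-fold and a grey band over the middle 50% of all expressed genes. Birc5 at 0.67 lies beyond the upper dotted line, and Top2a and Mki67 form the lower end at -0.49 and -0.54.

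The G1 regulators with a restored value lay on both sides of 0 by small amounts, with 2 of 6 below it, beside 45.8% of all expressed genes. The places of Ccnd1, Ccnd2 and Cdk2 were undecided. Ccnd3, a D-type cyclin that starts G1 progression, read 172 in the knockout model, against 128 in the wildtype model, a difference of 0.42. Cdk4, one of the kinases that D-type cyclins activate, read 3152 in knockout against 2637 in wildtype (0.26). Cdk6, the alternative partner of those cyclins, went the other way with 505 in knockout against 653 in wildtype (-0.37). Cyclin E, encoded by Ccne1, drives entry into S phase with Cdk2. Its gene read 158 in knockout against 131 in wildtype (0.27). The transcription factor gene E2f1 read 238 in knockout against 177 in wildtype (0.43), the highest difference of this role, where 4 of 6 genes were above 0 and the median was 0.27. Mybl2, which encodes B-Myb, had 2 probe sets that differed in direction. The brighter one read 96.4 in knockout against 107 in wildtype (-0.14), and the dimmer one, below the expression threshold on both arrays, read 40.8 in knockout against 33.1 in wildtype (0.30).

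The replication genes showed no common direction, with 8 of 13 above 0 and a median of 0.03. Cdc45, which activates the replicative helicase, had the highest difference of all G1/S members, with 125 in the knockout model, against 85.4 in the wildtype model (0.55, 1.47-fold). Cdc6, which loads the helicase onto origins, read 77.9 in knockout against 95.7 in wildtype (-0.30). Its partner Cdt1 read 162 in knockout against 156 in wildtype (0.06), and Gmnn, encoding the Cdt1 inhibitor geminin, 76.4 in knockout against 88.7 in wildtype (-0.21). The helicase subunits Mcm3, Mcm4, Mcm5 and Mcm7 belong to 1 ring but differed in direction. Mcm3 read 166 in knockout against 133 in wildtype (0.32) and Mcm5 read 215 in knockout against 278 in wildtype (-0.37). Mcm4 read 657 in knockout against 629.7 in wildtype (0.06) and Mcm7 349 in knockout against 351 in wildtype (-0.01). In the printed promoters Mcm3 and Mcm5 carry the same number of E2F matches and CCAAT boxes, yet stand near opposite ends of this role.

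Genes for the replication clamp and for nucleotide supply lay between -0.14 and 0.11. Pcna, the sliding clamp that holds the polymerases, read 1687 in the knockout model, against 1683 in the wildtype model (0.00). Rrm1 and Rrm2 encode the subunits of ribonucleotide reductase, which makes deoxynucleotides. Rrm1 read 637 in knockout against 625 in wildtype (0.03), and the brighter Rrm2 probe set 163 in knockout against 160.04 in wildtype (0.03). The dimmer Rrm2 probe set read 25.99 in knockout against 30.2 in wildtype, below the threshold. Tyms, the thymidylate synthase gene, read 174 in knockout against 191 in wildtype (-0.14), and Tk1, a thymidine kinase gene switched on in S phase, 317 in knockout against 294 in wildtype (0.11).

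Mitotic kinases and cyclins lay on both sides of 0, with 3 of 6 above it and a median of -0.10. Ccna2, the A-type cyclin of S phase and G2, read 494 in the knockout model, against 457 in the wildtype model (0.11). Cdc25c, whose phosphatase activates Cdk1, read 81.4 in knockout against 97.7 in wildtype (-0.26). Plk1, a polo-like kinase of mitotic entry and spindle assembly, was level at 302 in knockout against 302 in wildtype (0.00). Aurora kinases split, with Aurka of the spindle poles at 189 in knockout against 169 in wildtype (0.16) and Aurkb of the chromosomal passenger complex at 259.8 in knockout against 300.3 in wildtype (-0.21). Foxm1, the transcription factor gene of the G2/M programme, read 131 in knockout against 154 in wildtype (-0.23).

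Spindle checkpoint genes and the genes of anaphase control lay on both sides of 0, with 2 of 5 above it. Bub1 and Bub1b, encoding checkpoint kinases at the kinetochore, read 150.4 in knockout against 173 in wildtype (-0.20) and 148 in knockout against 165 in wildtype (-0.16). Mad2l1, whose product restrains the anaphase-promoting complex, read 443 in the knockout model, against 421 in the wildtype model (0.07). Cdc20, the coactivator that this checkpoint holds back, had the highest difference of the role, 252 in knockout against 182 in wildtype (0.47, 1.38-fold). Ube2c, the ubiquitin-conjugating enzyme of the same complex, read 329 in knockout against 368 in wildtype (-0.16). Thus the coactivator and its checkpoint kinases lay on different sides of 0, all within 1.5-fold.

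Birc5 was the outlying member of the spindle and kinetochore role. It encodes survivin, a subunit of the chromosomal passenger complex, and read 126 in the knockout model, against 79.4 in the wildtype model, a difference of 0.67 (1.59-fold higher). Its place had 2 possible pairs and a probability of 0.967, the lowest among the members used. The other genes of the complex, Aurkb at -0.21 and, chosen after their values were seen, Incenp at 100.0 in knockout against 101 in wildtype (-0.02) and Cdca8 at 91.6 in knockout against 99.2 in wildtype (-0.12), did not share this direction. Kif11, the motor that pushes spindle poles apart, had the lowest difference of the role, with 163 in knockout against 222 in wildtype (-0.45, 1.36-fold lower). Motors of cytokinesis differed from each other. Kif20a read 247 in knockout against 204 in wildtype (0.28) and Kif23 188 in knockout against 205 in wildtype (-0.13).

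The remaining spindle and centromere genes stayed close to 0. Tpx2, an activator of Aurora A on the spindle, read 277 in the knockout model, against 239.8 in the wildtype model (0.21), and Nusap1, a microtubule-bundling protein gene, 113 in knockout against 108 in wildtype (0.07). The centromere members Cenpa, Cenpe and Cenpf read lower by small amounts, where 45.8% of all expressed genes lay below 0. Cenpa, the centromeric histone H3 variant, read 159 in knockout against 176 in wildtype (-0.15). The kinetochore motor gene Cenpe read 121 in knockout against 128 in wildtype (-0.08) and Cenpf 83.3 in knockout against 89.7 in wildtype (-0.11). Centromere genes of the wider mitotic list described below lay on both sides of 0.

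Both proliferation markers read lower in the knockout model. Mki67, which encodes the Ki-67 antigen used in histology to count cycling cells, read 449 in the knockout model, against 655 in the wildtype model, a difference of -0.54 (1.46-fold lower). Top2a, the topoisomerase that untangles sister chromatids, read 215 in knockout against 301 in wildtype (-0.49, 1.40-fold lower). They were the lowest of all 41 members, and neither reached 1.5-fold. Both had several possible places of the decimal point.

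The decimal point of 7 members stayed undecided, and they are not in the counts above. For 6 of them the level was unclear, but the likely places shift both arrays together and give the same difference. The probability of that difference was at least 0.95. Other pairs of places with far larger differences were possible and were weighed as unlikely. A true difference near 10-fold could therefore be read as a small one here too. Ccnb2, a B-type cyclin of mitotic entry, read 34.7 in the knockout model, against 48.6 in the wildtype model, or 347 in knockout against 486 in wildtype, and both pairs give -0.48 (1.40-fold lower). Cdk1, the mitotic kinase, read 67.4 in knockout against 68.6 in wildtype or 674 in knockout against 686 in wildtype, a difference of -0.02 in either case. The helicase gene Mcm6 read 191 in knockout against 193 in wildtype or 19.1 in knockout against 19.3 in wildtype (-0.01), and Mcm2 337 in knockout against 326 in wildtype or 3367 in knockout against 3258 in wildtype (0.05). Ccnd2 differed by 0.04 and Cdk2 by 0.22. For Ccnd1, another D-type cyclin gene, the likeliest pair, 1318 in knockout against 1080.4 in wildtype (0.29), had a probability of 0.941 and was not accepted. With the 6 decided differences added, Mcm6 excepted because its likeliest level was below the threshold, 24 of 46 members were above 0. Below 0 were 22 of 46, beside 45.8% of all expressed genes. Ccnb2, among these 22, passed the threshold at its likeliest level on the wildtype array only.

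Beyond the members, a wider list of replication genes also centred close to 0. Of 53 listed genes 48 were expressed, 3 exceeded 1.5-fold upward in the knockout model and none downward, beside 11.5% and 8.31% of all expressed genes, and the median was 0.06. The 3 were Rfc2, a subunit of the clamp loader, with 171 in knockout against 105 in wildtype (0.71), Orc3, a subunit of the origin recognition complex, with 199.8 in knockout against 132 in wildtype (0.60), and Prim2, the large primase subunit, with 259.7 in knockout against 172 in wildtype (0.60). Hells, a chromatin remodeller, was lowest with 90.7 in knockout against 127 in wildtype (-0.49).

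The wider list of 81 mitotic genes had 73 expressed members and a median of -0.03, with 2 genes past 1.5-fold upward (2.74%) and 3 downward (4.11%), beside 11.5% and 8.31% of all expressed genes. Zwint, whose product links kinetochore proteins, was the highest at 1897 in the knockout model, against 903 in the wildtype model (1.07, 2.10-fold), with 1 possible place of the point. It was the single gene of either wider list at least 2-fold apart. Gtse1 read 112 in knockout against 72.1 in wildtype (0.63). The lower genes were Ncapd2, a condensin subunit, with 124 in knockout against 199.6 in wildtype (-0.69), Cdc25b, a phosphatase that activates cyclin-dependent kinases, with 339 in knockout against 529 in wildtype (-0.64), and Ckap2 with 192 in knockout against 288 in wildtype (-0.59).

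Regulators above the members were described from a list of their own. The 25 listed genes were of the E2F, pocket protein and Myc families and their partners, with other regulators such as Cdk7 added. On both arrays 20 passed the threshold, with a median of -0.07. Past 1.5-fold were 1 gene upward (5%), Cdk7, and 1 downward (5%), Rb1. The shares were 11.5% and 7.91% of the 11346 genes that passed on both arrays. Mycl and Mycn passed on the wildtype array only and are not in this count. Rb1, the retinoblastoma gene, whose product holds E2F factors in check, read 353 in the knockout model, against 576 in the wildtype model (-0.71, 1.63-fold lower) on its brighter probe set, while its dimmer probe set, below the threshold, read 29.0 in knockout against 31.4 in wildtype (-0.11). Mycl read 34.6 in knockout against 59.6 in wildtype, below the threshold in the knockout model. Cdk7, the kinase that activates other cyclin-dependent kinases, read 377 in knockout against 241 in wildtype (0.64). Of 5 expressed inhibitors of cyclin-dependent kinases, Cdkn2b, which blocks Cdk4 and Cdk6, was highest with 383 in knockout against 245 in wildtype (0.64) and Cdkn1b, encoding p27, lowest with 248 in knockout against 377 in wildtype (-0.61). The places of the pocket protein gene Rbl1 and of the inhibitor genes Cdkn1a and Cdkn2a were undecided.

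**Figure D4:**
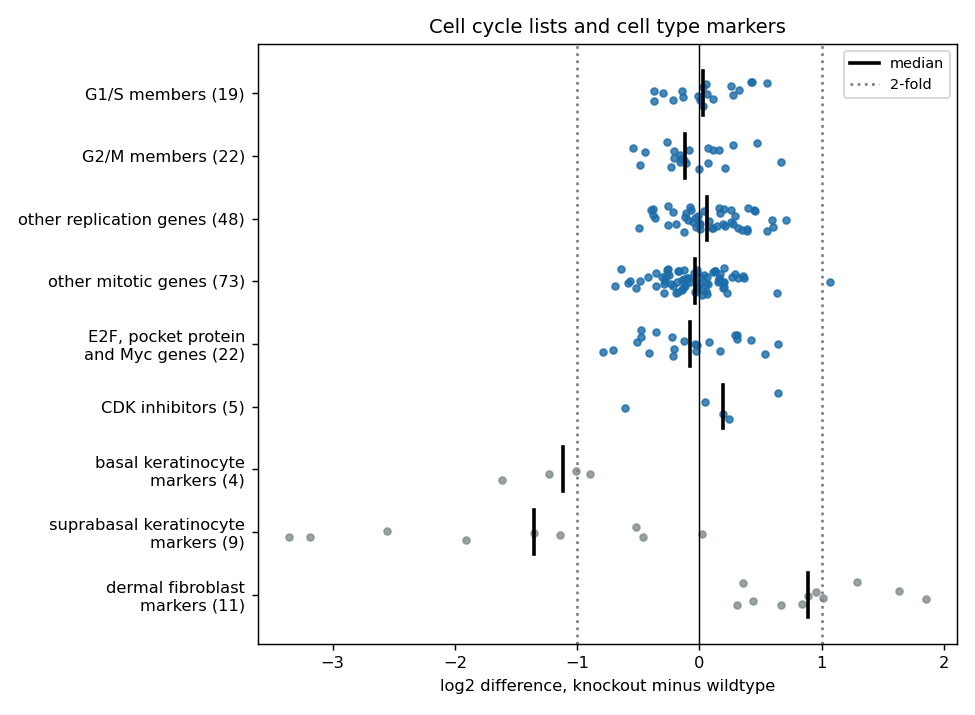
Log2 differences (knockout minus wildtype, horizontal axis) of expressed genes in 9 lists, with a black bar at each median and the number of genes in brackets. The 6 cell cycle lists (blue) centre between -0.12 and 0.20, whereas the basal keratinocyte markers centre at -1.12, the suprabasal ones, with Krt1 and Flg, at -1.35 and the fibroblast markers at 0.89 (grey).

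Markers of both labelled cell types, keratinocytes and fibroblasts, were expressed in both models. Among markers that passed the threshold on both arrays, 4 of 4 basal and 6 of 7 suprabasal keratinocyte markers lay past 1.5-fold on the lower side in the knockout model, beside 7.91% of all genes that passed on both. Of the fibroblast markers 8 of 11 were at least 1.5-fold higher, beside 11.5%. All 4 expressed basal keratinocyte markers read lower in the knockout model, with a median of -1.12 and an intensity summed over them of 7420.1 in knockout against 18347 in wildtype. They are a part of the 8 listed. Krt5 had no probe set of its own, and the places of Itgb4, Trp63 and Col17a1 were undecided. The place of Calm4 in the suprabasal list was undecided too. Dsg3, a desmosomal cadherin gene, was lowest with 2150 in knockout against 6581 in wildtype (-1.61) and the integrin gene Itga6 least different with 1132 in knockout against 2101 in wildtype (-0.89). Of the 7 suprabasal markers that passed on both arrays 6 read lower (median -1.91), from Dsg1a with 78.5 in knockout against 802 in wildtype (-3.35) to Ivl, the involucrin gene, with 143 in knockout against 141 in wildtype (0.02). Krt1, a keratin of the spinous layer, and Flg, the filaggrin gene, read below the threshold in the knockout model, with 39.8 in knockout against 54.7 in wildtype and 38.8 in knockout against 55.7 in wildtype. With these added, the median over 9 markers was -1.35 and their summed intensity 3468 in knockout against 13358 in wildtype. All 11 expressed fibroblast markers read higher (median 0.89, summed 10776 in knockout against 6106 in wildtype), from Fbln1 with 396 in knockout against 321 in wildtype (0.31) to Col6a2 with 599 in knockout against 166 in wildtype (1.85). Of the 14 listed, Lum went the other way below the threshold on both arrays, with 24.6 in knockout against 30.9 in wildtype (-0.33). The places of Col6a1 and Pdgfrb were undecided. In RNA from whole models, fewer cells of a type and less RNA per cell cannot be told apart. The part of these marker differences in the cell cycle values was not tested. The summed intensity of the 41 members was 14049 in the knockout model, against 13798 in the wildtype model, 102% of the wildtype sum. It was 106% over the G1/S members and 94.7% over the G2/M members. The brightest genes weigh most in such a sum. Cdk4 alone, with 3152 in knockout against 2637 in wildtype, had a larger gap than the sum of all members.

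Most markers of other cell types read below the expression threshold on both arrays. Of 5 listed T cell markers 3 had a restored value and none was expressed, with Cd3e at 31.4 in knockout against 32.8 in wildtype. Of 7 restored macrophage and Langerhans cell markers 2 were expressed, Cd68 with 861 in knockout against 1161 in wildtype and C1qa with 49.6 in knockout against 44.0 in wildtype. C1qa passed the threshold on the knockout array only. Of 5 endothelial markers 2 passed the threshold, both on the knockout array only. Kdr read 87.4 in knockout against 36.1 in wildtype. Tie1 read 54.1 in knockout against 46.29 in wildtype, just under the threshold of 46.34. Of 7 melanocyte markers 4 were expressed, from Mlana with 705 in knockout against 109 in wildtype to Sox10 with 51.3 in knockout against 66.4 in wildtype.

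**Figure D5:**
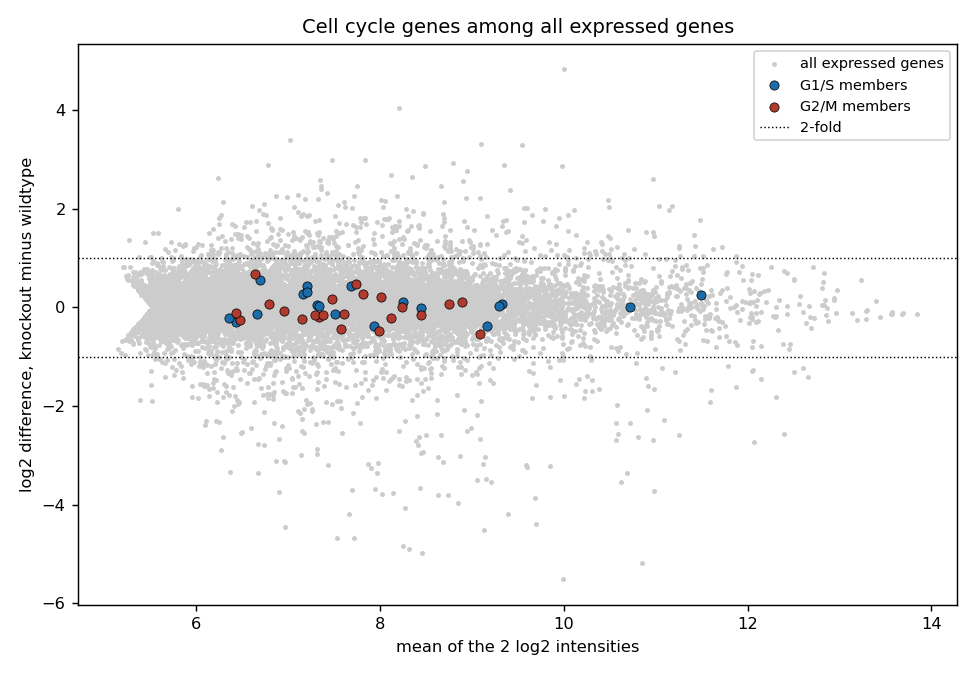
Log2 difference (knockout minus wildtype, vertical axis) against the mean of both log2 intensities for all 12667 expressed genes (grey), with G1/S members in blue and G2/M members in red and dotted lines at 2-fold. All 41 members lie between the dotted lines, from -0.54 to 0.67.

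The promoter classes could be set beside the differences for the members that have both. Among 16 G2/M members, the 12 with a CHR had a median difference of -0.15 and the 4 without one, Mad2l1, Nusap1, Cenpe and Birc5, a median of 0.07. Among G1/S members, the 7 with an E2F motif had a median of 0.03 and the 10 without one 0.18. All 7 were replication genes, while the 6 G1 regulators (median 0.27) were all among those without, so this split also follows role. Over all expressed genes the medians were 0.03 with and 0.04 without a CHR, and 0.03 with and 0.04 without an E2F motif. Cdc20, with a CHR and CCAAT boxes, read higher, whereas Top2a and Mki67, with the same kinds of motif, read lower. These medians rest on few genes and 1 array in each group.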

How the data were processed

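Total RNA of 1 knockout and 1 wildtype skin model was amplified (Ambion WT Expression Kit) and biotin-labelled (Affymetrix WT Terminal Labeling kit) in each case, per the labels' protocols. The authors deposited 1 linear intensity per probe set and array. Their summary and normalization steps are not stated in the sources at hand. Of 67586 deposited intensities, 67457 lacked the decimal point. It was put back at places between 18 and 20000 that yield the shortest text of a single-precision float, itself a power of 2 whose exponent is also single-precision. All values had a possible place. For 20952 of 33793 probe sets (62.0%) only 1 pair of places was possible, and their log2 intensities correlated between the arrays (Pearson r 0.96, over probe sets, not replicates). Other pairs were weighed by the joint distribution of mean level (bins of 0.5 log2) and absolute difference (bins of 0.25 log2) in 25 rounds of expectation maximisation. A probability of 0.95 was required, giving 31759 probe sets. The probabilities imply 41.2 wrong places among them and 0.105 among the members. The restoration was tested on simulated data, where part of the changes near and beyond 10-fold were put at a wrong place.

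A platform annotation named 23521 probe sets with 1 symbol, 1814 with several (not used) and 8458 with none. Of the first, 23328 had an Entrez identifier in RefSeq (GRCm38.p6), and 0 symbols changed. The brightest probe set stood for a gene. The medians of the arrays were close, and no further normalization was applied. With 1 array per group no test was run. The members and gene lists were chosen with earlier results of these data known. The text names all members, the genes of the wider cell cycle lists that were at least 1.5-fold apart or at the ends of a list, and the ends of each marker list. Cd3e, Krt1, Flg, Lum, Mycn, Incenp and Cdca8 are named besides, as are some of the listed genes without a restored value. Alternatives covered the place of the point, the filter, normalization, a pseudocount of 16, the probe set rule, the list summary and the fold threshold. Python 3.11.15, numpy 2.4.6, pandas 2.3.3 and matplotlib 3.10.9 were used.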

Additional observations from a re-analysis of the deposited data

How the results depend on the processing

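No member was 2-fold apart under any alternative that kept that threshold. Only the setting with 1 possible place, which held 19 members, did not rest on the weighing of places. The other settings cannot show a difference near 10-fold that this weighing had read as small. At 1.5-fold, 1 member was higher and 0 lower, and 1456 of all expressed genes were higher and 1052 lower, as a lower threshold must give. Where both arrays had 1 possible place, 304 of all genes were at least 2-fold higher, since fewer genes were tested. The median of the members ranged from -0.14 to 0.02, that of the G1/S members from 0.01 to 0.06 and that of the G2/M members from -0.18 to -0.05, and the G1/S median stayed above the G2/M median by 0.10 to 0.24 in every setting run. Counting differences decided at undecided levels, and requiring both values above the threshold in the wider and marker lists, were alternatives chosen after seeing the data. Of 508 differences of named genes recomputed, 507 moved by less than 1.5-fold and 1 moved by more, Rb1, where its dimmer probe set (-0.11) stood in for the brighter one. A sign change was seen in 7, all in Mybl2, Mcm7, Pcna, Rrm2 and Plk1. No paired analysis was possible because there is 1 array per genotype, and none could be left out.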
